A study of Homo sapiens with 18 samples.

Results

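The comparison described here is that of PANC-1 cells treated with 400 nM C16 against the same cells treated with DMSO, the solvent. All genes that averaged 10 or more normalized read counts over the 9 libraries of the C16 experiment were taken, which left 9963 of the 26485 genes listed. PANC-1 is an established human cell line that came from a carcinoma of the pancreatic duct, and C16 is a small molecule inhibitor of protein kinase R (PKR), the kinase encoded by EIF2AK2. RNA was collected 72 h after addition of DMSO (3 libraries), 400 nM C16 (3 libraries) or 800 nM C16 (3 libraries), with no siRNA in any of these groups. The 9 libraries were labelled as run 2 and were normalized in a table of their own, apart from the 9 siRNA libraries of the study, which came from run 1 and are not compared here. The study set out to learn how inhibition of PKR alters transcription in pancreatic cancer cells. A single line was used, and the sources used here do not say whether the replicates were separate cultures, so the SDs and p-values below describe the spread between libraries, which may be technical.

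PKR is one of the kinases that phosphorylate the alpha subunit of the translation factor eIF2. This phosphorylation slows translation of most mRNAs while favouring that of ATF4, a transcription factor that raises genes of amino acid supply and stress, together called the integrated stress response. PKR itself is activated by double-stranded RNA and is best known from the interferon response to viruses.

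The libraries held 977167 to 1474308 reads on genes (DMSO 1148151 to 1474308, 400 nM C16 977167 to 1050520), so that genes with few reads were measured imprecisely. The third DMSO library was the deepest and differed most from its replicates, its chi-square divided by the degrees of freedom being 1.70 and 1.41 against the first and second, where the first and second gave 1.08 and the 400 nM pairs 1.08 to 1.14. The labelled epithelial cell type was checked on its markers. KRT8 (4361 normalized counts with DMSO) and KRT18 (1440) were abundant, KRT19, EPCAM and CDH1 were also present, and KRT7 did not reach the minimum. Of 15 defining markers of immune, endothelial, stromal, endocrine and acinar cells, CD68 was the single one above the minimum. CD68, which encodes a lysosomal membrane protein, was itself raised by 400 nM C16, from 53.3 ± 3.53 to 158 ± 14.8 normalized counts (mean ± SD, n = 3 per group). In RNA from whole cultures, fewer cells of a type and less RNA per cell cannot be told apart.

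At 400 nM, C16 raised 705 of the 9963 genes (7.08%) and lowered 543 (5.45%), together 12.5%. A gene was called raised or lowered when its fold change exceeded 1.5 and its Benjamini-Hochberg adjusted p-value, from limma on log2 (normalized count + 1), was under 0.05. Without the fold threshold 2645 genes passed. Most changes were modest, since 213 raised and 154 lowered genes changed by over 2-fold and 20 and 7 by over 4-fold. The median log2 fold change over all genes tested was 0.00 and the median standard error 0.17. All 400 nM libraries lay above all DMSO libraries for 2037 genes (20.4%) and below them for 1906 (19.1%). For a single gene an exact permutation test of 3 libraries against 3 cannot give a two-sided p below 0.1, so the calls rest on the fit over all genes.

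**Figure D1:**
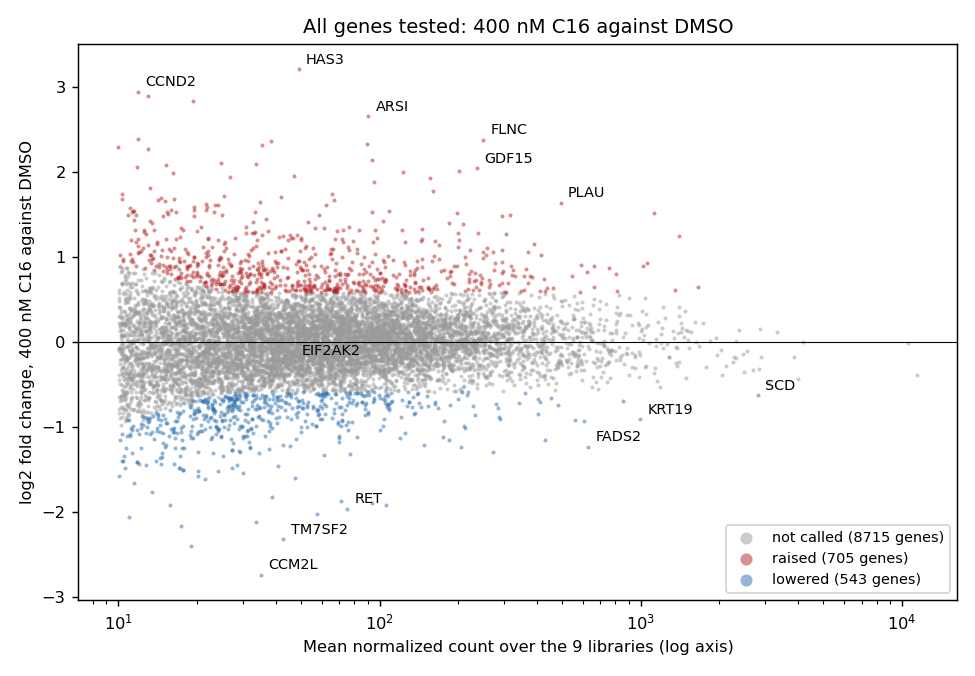
Each point is 1 of the 9963 genes, with its mean normalized count over the 9 libraries on a log x axis and its log2 fold change at 400 nM C16 against DMSO on the y axis. Raised genes (705, red) and lowered genes (543, blue) lie on both sides of a dense band of 8715 uncalled genes (grey) that holds EIF2AK2, while FLNC, GDF15 and PLAU stand out among the better measured raised genes.

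EIF2AK2, the gene of the inhibited kinase, was not called. Its normalized counts were 45.7, 49.5 and 54.1 with DMSO and 45.7, 39.2 and 42.6 with 400 nM C16, a log2 fold change of -0.22 with a standard error of 0.17 (Benjamini-Hochberg adjusted p = 0.35, limma). The highest 400 nM library stood level with the lowest DMSO library. C16 acts on the kinase rather than on its mRNA, so this level is no check of the inhibition.

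FLNC, PLAU and GDF15 were among the clearest rises. FLNC encodes filamin C, an actin crosslinking protein best known from muscle, and lies on chromosome 7 from 128830429 to 128859274 on the plus strand (hg38). Its normalized counts were 57.3, 62.9 and 85.3 with DMSO against 373, 383 and 316 with 400 nM C16, a log2 fold change of 2.38 with a standard error of 0.10 (Benjamini-Hochberg adjusted p = 3.6e-27, limma). PLAU encodes urokinase, the protease that activates plasminogen at the cell surface, and lies on chromosome 10 from 73911104 to 73917500. It stood at 235, 186 and 212 with DMSO and at 623, 690 and 660 with 400 nM C16, a log2 fold change of 1.64 with a standard error of 0.08 (Benjamini-Hochberg adjusted p = 1.4e-25, limma). GDF15, a secreted stress cytokine of the TGF-beta superfamily on chromosome 19 from 18386158 to 18389176, went from 80.6, 100 and 80.7 to 374, 321 and 392, a log2 fold change of 2.05 with a standard error of 0.10 (Benjamini-Hochberg adjusted p = 1.9e-24, limma). These 3 genes were taken because they mark this comparison, so the separation of their groups is no separate result. In each, all 400 nM libraries lay above all DMSO libraries, as they did for 20.4% of all genes tested. Of the exon bases of PLAU, 28.6% overlap C10orf55 on the opposite strand, and the sources used here do not say whether counting used strand.

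Among better measured genes (called, mean 50 or more, groups not overlapping), the largest rises were led by ARSI, a sulfatase gene, with 16.5, 16.2 and 24.4 normalized counts with DMSO and 118, 134 and 120 with 400 nM C16 (log2 fold change 2.66). FLNC was second. SH2D5 followed (2.33), and DUSP5, which encodes a nuclear phosphatase that inactivates ERK, went from 22.3 ± 4.45 to 101 ± 4.60 (mean ± SD, n = 3 per group, 2.15). CDCP1, a transmembrane glycoprotein that is phosphorylated by SRC (2.02), STX3, a syntaxin of membrane fusion (2.00), and COL7A1, the collagen of anchoring fibrils under epithelia (1.93), came after GDF15. The 12 were completed by the long noncoding RNA MEG3 (1.88), the kinase gene ABL2 (1.77), the epithelial keratin KRT80 (1.75) and CLDN1, a claudin of tight junctions (1.67). Their Benjamini-Hochberg adjusted p in limma was 5.0e-13 or less.

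The largest falls by the same rule were those of MXRA5, a matrix remodelling protein, which went from 112, 126 and 152 to 38.3, 26.5 and 28.7 normalized counts (log2 fold change -2.03), and RET, the receptor tyrosine kinase for GDNF family ligands, from 162, 149 and 187 to 55.3, 27.7 and 46.8 (-1.96). FAAP100, a subunit of the Fanconi anaemia core complex, was at 227, 228 and 225 with DMSO and at 63.8, 56.5 and 57.4 with 400 nM C16 (-1.92). LXN, an inhibitor of carboxypeptidases, and SPARC, a secreted matrix protein, had log2 fold changes of -1.89 and -1.87. After a gap came FAM65C (-1.33), the transporter gene ABCC3 (-1.32), the LIM protein genes CRIP1 (-1.30) and CRIP2 (-1.21), JUP, which encodes plakoglobin of desmosomes (-1.23), the fatty acid desaturase gene FADS2 (-1.23) and LYNX1 (-1.18). In limma their Benjamini-Hochberg adjusted p was 5.7e-08 or less. That their groups did not overlap follows from the rule.

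**Figure D2:**
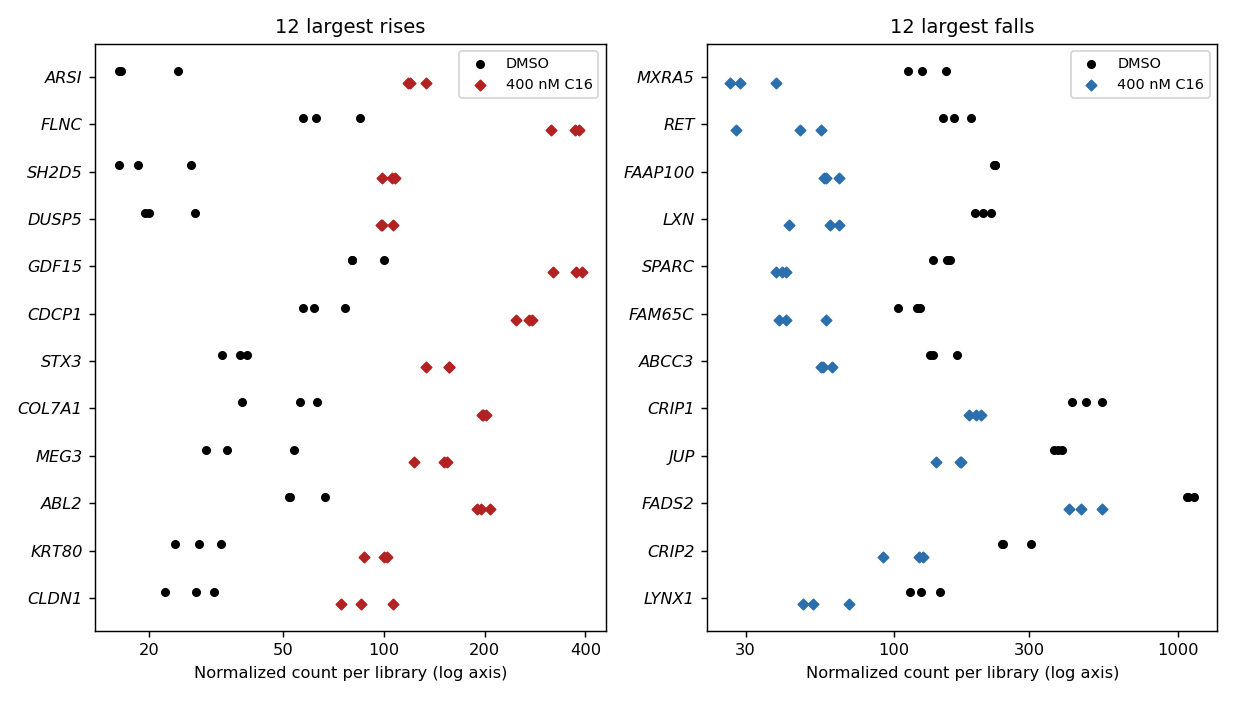
Normalized counts of single libraries (log x axis) for the 12 largest rises and the 12 largest falls among genes whose mean was 50 or more, with DMSO as black circles and 400 nM C16 as coloured diamonds (3 libraries each). Genes were taken only if called and if the groups did not overlap, so the separation of diamonds and circles follows from the choice. ARSI and FLNC are widest apart on the left and MXRA5 and RET on the right.

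To describe pathways, gene lists were read by the number of their tested members that were raised or lowered beside the shares over all genes (7.08% and 5.45%), and by their median log2 fold change beside 0.00. The list of ATF4 targets and integrated stress response genes stood highest. Of its 39 tested members 24 were raised and 1 lowered, with a median log2 fold change of 0.84, and 33 were above 0. Leaving out each library in turn gave 23 to 26 raised members.

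ATF4 itself, the regulator of this list, went from 247, 266 and 236 to 413, 404 and 397 normalized counts (log2 fold change 0.70 with a standard error of 0.08, Benjamini-Hochberg adjusted p = 8.8e-10, limma). After GDF15 the largest rise in the list was that of ATF3, a stress-induced transcription factor, from 17.5, 15.2 and 14.5 to 65.9, 61.1 and 63.8 (1.95). SLC7A11, the cystine and glutamate exchanger, went from 48.6, 43.8 and 38.8 to 158, 101 and 131 (1.54), and STC2, a secreted glycoprotein, rose by 1.52. These groups did not overlap, which their choice as the largest called rises favours (20.4% of all genes tested lay wholly above DMSO). Among the key members of the response, DDIT3 (the transcription factor CHOP, of whose exon bases 5.77% overlap MARS on the opposite strand) rose by 1.05, TRIB3 (a pseudokinase that restrains AKT) by 1.23, CHAC1 (a glutathione-degrading enzyme) by 1.31 and VEGFA (an angiogenic factor) by 0.85. ASNS, which makes asparagine and is a classical ATF4 target, had a log2 fold change of 0.46 with Benjamini-Hochberg adjusted p = 3.9e-05, limma, below the fold threshold. KLHL24 was the lowered member, from 35.7 ± 7.84 to 18.7 ± 9.22 (mean ± SD, n = 3 per group), and was no longer called without the second DMSO library (-0.84) or the second 400 nM library (-0.59).

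**Figure D3:**
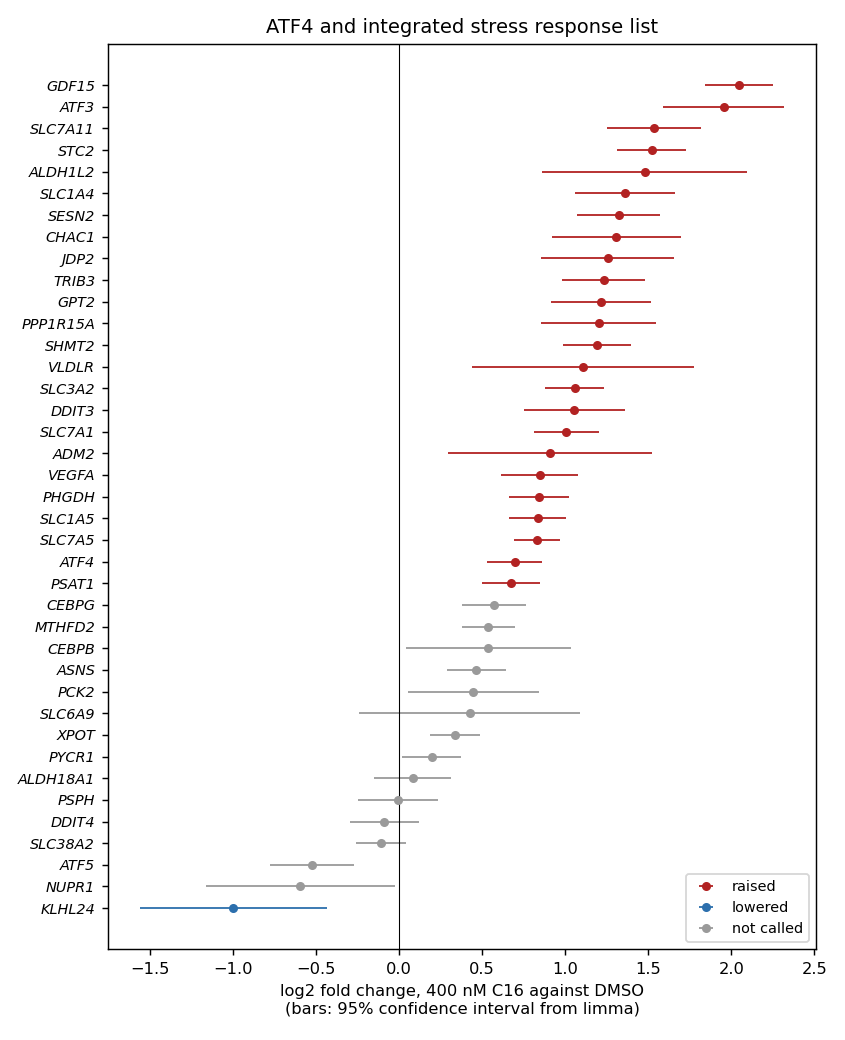
Log2 fold changes at 400 nM C16 against DMSO (x axis) for the 39 tested members of the ATF4 and integrated stress response list, with 95% confidence intervals from limma as bars. Raised members (24, red) run from PSAT1 at 0.67 to GDF15 at 2.05, the uncalled ones (grey) lie around or just above 0, and KLHL24 (blue) is the member lowered.

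Upstream of ATF4, the mRNAs of the eIF2 kinases and of the eIF2 and eIF2B subunits had few calls. Kinase activity and eIF2 phosphorylation were not measured in these libraries. Of 25 tested members of the PKR and eIF2 list 2 were raised and 0 lowered, with a median log2 fold change of -0.02. Without the fold threshold 8 had a Benjamini-Hochberg adjusted p under 0.05 in limma. Both genes called raised encode regulatory subunits that direct a phosphatase to eIF2, the inducible PPP1R15A (from 28.4 ± 1.56 to 66.7 ± 4.90 normalized counts, mean ± SD, n = 3 per group, log2 fold change 1.20) and PPP1R15B (0.96). EIF2AK3, the kinase PERK, had a log2 fold change of 0.27 and a Benjamini-Hochberg adjusted p = 0.46 in limma. Leaving out the first DMSO library gave 1 lowered member. Translation initiation factors and their regulators had 2 of 36 raised and 0 lowered, EIF4EBP1 (0.88), a repressor of cap-dependent translation, and EIF6 (0.82), which acts on the large ribosomal subunit.

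Genes of amino acid synthesis and transport were also raised in part, in a list that shares members with the ATF4 list. Of 37 tested, 15 were raised and 3 lowered, and the median log2 fold change was 0.46. Besides SLC7A11, the largest rises were ALDH1L2, an enzyme of mitochondrial folate metabolism (8.70 ± 1.60 to 26.1 ± 4.60 normalized counts, mean ± SD, n = 3 per group, log2 fold change 1.48), SLC1A4, a carrier of neutral amino acids (1.36), and GPT2, the mitochondrial alanine transaminase (1.21). Of the enzymes of serine synthesis, PHGDH, the first, rose from 154, 146 and 152 to 289, 261 and 262 normalized counts (0.84) and PSAT1, the second, by 0.67. The lowered members were PYCRL (-1.43), which acts in proline synthesis, ASS1 (-1.30), the argininosuccinate synthase, and the transporter gene SLC43A2 (-0.82). Among the aminoacyl-tRNA synthetases and their accessory proteins AIMP1, AIMP2 and EEF1E1, a list without the separate mitochondrial enzymes, 5 of 23 were raised and 1 lowered, with GARS at 500, 524 and 458 with DMSO and 945, 852 and 916 with 400 nM C16 (0.87), SARS (0.79), CARS (0.77) and YARS (0.77) against DARS (-0.69). These enzymes charge tRNAs with glycine, serine, cysteine, tyrosine and aspartate. Of the exon bases of YARS, 7.96% overlap another gene on the opposite strand.

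ATF4 pairs with C/EBP proteins on a composite DNA element, and the letters TGATGNAA (N is any base, both strands searched) were looked for in the 300 bases around each RefSeq start, 250 before and 50 after. A promoter was matched to 8235 of the 9963 genes tested (RefSeq, GRCh38.p14). The letters were present in 1.49% of these, in 3.35% of the 567 promoters of raised genes and in 1.59% of the 441 promoters of lowered genes, and over the whole table of 27305 promoters in 3.67%. They were found in 4 of 19 matched raised members of the ATF4 list (ATF3, CHAC1, SLC3A2 and SLC7A1) and in 5 of 11 of the amino acid list (GOT1, SLC38A1 and BCAT1 beside SLC3A2 and SLC7A1). CARS held them too. The ATF4 list was written as one of known ATF4 targets, and uncalled members of the lists were not counted. These shares are therefore not read as an effect of C16. TGANTCA, the letters bound by AP-1, was present in 7.41% of raised, 3.85% of lowered and 3.86% of all tested promoters, and the TGATGNAA letters do not contain it. The 4 matches that lie before the RefSeq start are shown because they belong to raised genes of the ATF4 list (ATF3 and CHAC1) or of the amino acid list (GOT1 and BCAT1), 60 bases each, read on the strand of the gene from 5′ to 3′, with the matched letters in capitals (in CHAC1 and GOT1 they are the reverse complement).
ATF3, plus strand, chr1:212565190-212565249: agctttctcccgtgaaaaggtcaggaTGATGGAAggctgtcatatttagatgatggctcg
CHAC1, plus strand, chr15:40953236-40953295: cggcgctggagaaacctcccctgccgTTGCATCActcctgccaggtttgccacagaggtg
GOT1, minus strand, chr10:99430789-99430848: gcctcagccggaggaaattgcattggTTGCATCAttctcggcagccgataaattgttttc
BCAT1, minus strand, chr12:24949116-24949175: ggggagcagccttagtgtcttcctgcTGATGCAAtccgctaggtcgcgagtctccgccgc
The matches end 183, 201, 190 and 40 bases before the RefSeq starts, which are not the same as the gene starts of the deposited table. A match is a description of the letters and not a binding site.

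The genes behind these sequences were named after their values were seen. SLC3A2, the heavy chain shared by several amino acid exchangers, went from 158, 174 and 176 to 388, 334 and 340 normalized counts (log2 fold change 1.06). SLC7A1, the cationic amino acid transporter, rose by 1.01, GOT1, the cytosolic aspartate transaminase, by 1.14, BCAT1, which transaminates branched-chain amino acids, by 0.86 and the glutamine carrier SLC38A1 by 0.78. CHAC1 stood at 22.3, 22.9 and 20.6 with DMSO and at 55.3, 61.1 and 51.1 with 400 nM C16. None of these groups overlapped, which the choice of called genes favours. Of all genes tested, 20.4% had every 400 nM library above every DMSO library.

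Chaperones and other unfolded protein response genes of the endoplasmic reticulum moved less. Of 49 tested 6 were raised and 1 lowered, with a median log2 fold change of 0.20, and the number raised was 3 without the first DMSO library. HSPA5, the chaperone BiP, rose from 1002, 1046 and 999 to 1535, 1606 and 1528 normalized counts (0.62). HYOU1, another chaperone, had a log2 fold change of 0.65 and was not called without the first DMSO library (0.57). ERO1B, an oxidase that supports disulfide formation, was the lowered member (-0.84). Of 32 heat shock protein and chaperonin genes, mostly cytosolic but with the mitochondrial HSPD1 and HSPE1, 0 were raised and 1, HSPA1A, was lowered, from 114 ± 4.73 to 59.1 ± 6.82 (mean ± SD, n = 3 per group, log2 fold change -0.94).

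AP-1 transcription factors and transcripts known to follow ERK signalling had the next highest median log2 fold changes after the ATF4 list. Of 12 tested AP-1 and small MAF genes 6 were raised and 1 lowered (median log2 fold change 0.64), and of 24 tested genes of ERK output 7 were raised and 1 lowered (median 0.54). JUN went from 113, 127 and 101 to 266, 264 and 255 normalized counts (1.20). FOSL2, a FOS-related partner of JUN, went from 25.7 ± 2.12 to 70.7 ± 12.8 (mean ± SD, n = 3 per group, 1.41), and JDP2, a repressor that binds AP-1 sites, rose by 1.26. ATF3 belongs to this list as well. Of the ERK list, DUSP5 led, followed by HBEGF, a ligand of the EGF receptor (7.72 ± 2.58 to 24.9 ± 4.90, mean ± SD, n = 3 per group, 1.59), VGF, a neuropeptide precursor (1.55), and LIF, a cytokine of the interleukin 6 family (1.03). SPRY1, a feedback inhibitor of receptor signalling, was lowered (-0.86). ATF7, the lowered AP-1 member (-0.73), was not called without the third DMSO library (-0.56) or the second 400 nM library (-0.53), and 27.8% of its exon bases overlap another gene on the opposite strand. MYC, a well known ERK target, had a log2 fold change of 0.13 (Benjamini-Hochberg adjusted p = 0.51, limma).

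In the plasminogen system 4 of 8 tested genes were raised and 1 lowered, with a median log2 fold change of 0.36. Besides PLAU, the metalloproteinase inhibitors TIMP2 (77.0 ± 2.69 to 127 ± 14.3 normalized counts, mean ± SD, n = 3 per group, 0.71) and TIMP1 (0.65) were raised. S100A10, which helps hold plasminogen at the cell surface, was the lowered member (-0.60), but not without the second DMSO library (-0.58) or the third 400 nM library (-0.57).

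Cytoskeletal and mechanosensitive genes were raised in part. Of 46 tested actin and focal adhesion genes 6 were raised and 0 lowered (median log2 fold change 0.18), of 18 targets of SRF and its MRTF cofactors 5 and 0 (0.18), and of 24 YAP and TEAD targets 6 and 0 (0.20). Raised members are shared, so these counts are not separate. FLNC and FLNA are in the actin and SRF lists, CTGF in the SRF and YAP lists, and ITGA5 in the SRF and integrin lists. Besides FLNC, LIMA1, an actin bundling protein (0.94), and ZYX, zyxin of focal adhesions (108, 129 and 117 to 185, 225 and 229 normalized counts, 0.85), were raised. CTGF, a matricellular protein that serves as a readout of YAP, went from 104, 156 and 118 to 296, 317 and 299 (1.28), ITGA5, a fibronectin receptor subunit, rose by 1.08 and NT5E, an ectonucleotidase, by 0.82. FLNA, the common filamin, had a log2 fold change of 0.65 and was not called without the first DMSO library (0.57). Each of the 3 lists kept at least 4 raised members when any 1 library was left out, and the SRF list had 1 lowered member without the third 400 nM library.

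Matrix and adhesion genes were also raised in part. Of 29 tested laminins, collagens and integrins 8 were raised and 0 lowered, with a median log2 fold change of 0.25. COL7A1 went from 37.9, 56.2 and 63.2 to 198, 196 and 202 normalized counts. LAMA3 (9.81 ± 4.87 to 38.5 ± 8.18, mean ± SD, n = 3 per group, 1.94), which encodes a chain of the laminin that anchors epithelia, was raised from a low level. ITGA2, a collagen receptor subunit, went from 132, 140 and 158 to 394, 426 and 399.

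Keratins and junction proteins went both ways, with 4 raised and 5 lowered of 28 tested (median log2 fold change -0.03). KRT80 and CLDN1 were joined among the raised by PKP3, a desmosomal plakophilin (0.86). KRT19, the keratin of duct epithelium, fell from 1655, 1549 and 1543 to 818, 905 and 801 normalized counts (-0.91, Benjamini-Hochberg adjusted p = 8.8e-18, limma) and LLGL2, a cell polarity protein, fell too (-1.11). KRT18 (0.06) and KRT8 (-0.18) were not called. CDH1, E-cadherin, was lowered (-0.74), but not without the first (-0.71) or the third (-0.63) DMSO library or the second 400 nM library (-0.72), and the number of lowered members was then 3. Of 17 mesenchymal genes 4 were raised and 2 lowered, with SPARC falling from 154, 137 and 158 to 41.5, 40.4 and 38.3 and VIM, vimentin, at a log2 fold change of -0.35, under the fold threshold. Of the exon bases of SPARC, 5.29% overlap another gene on the opposite strand. The number lowered was 1 without the second 400 nM library. SNAI1, a repressor of CDH1, went from 9.72, 4.76 and 6.85 to 22.3, 11.5 and 17.0 normalized counts (1.15) and lost its call without the second DMSO library (0.92) or the first 400 nM library (0.94).

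**Figure D4:**
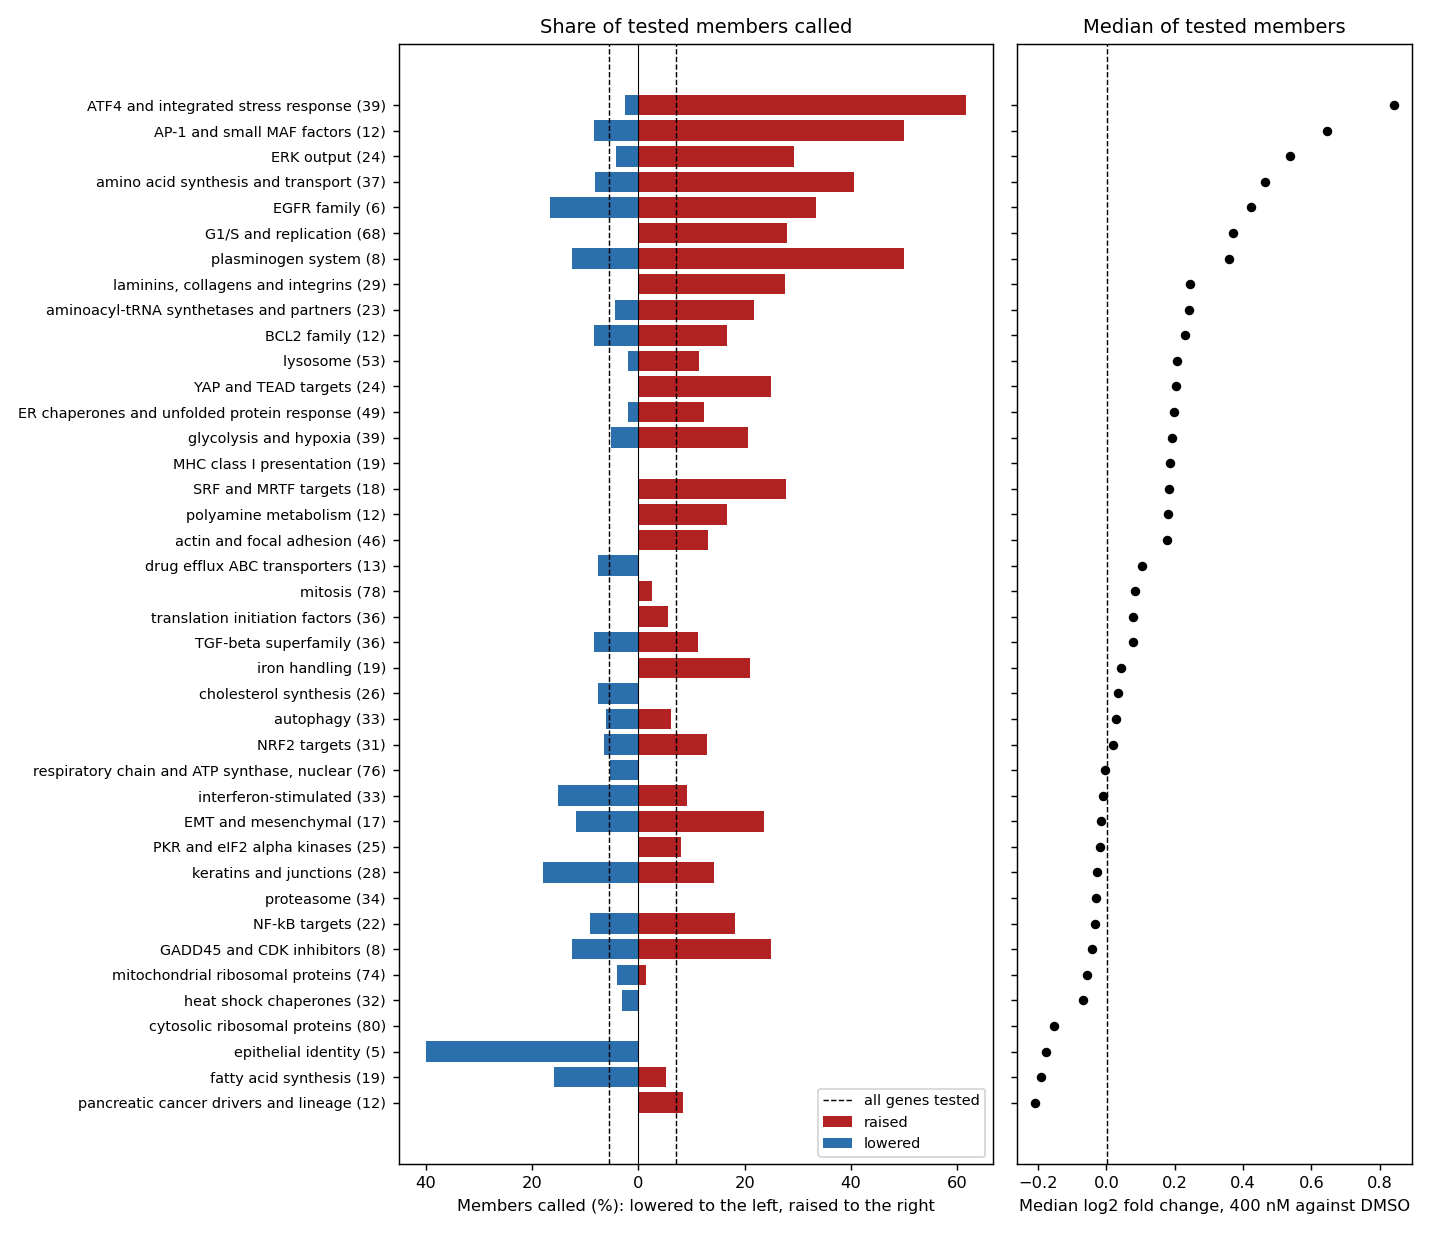
For each gene list (number of tested members in brackets), the left panel gives the percent of members raised (red, to the right) and lowered (blue, to the left), with dashed lines at the shares over all genes tested, 7.08% and 5.45%. The right panel gives the median log2 fold change at 400 nM C16 against DMSO, with a dashed line at the median of all genes. The ATF4 list is highest in both panels, at 61.5% raised and a median of 0.84.

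In the TGF-beta superfamily 4 of 36 tested genes were raised and 3 lowered (median log2 fold change 0.08), and 8 were raised without the third DMSO library. The raised genes were GDF15, NOG, an antagonist of BMPs (1.34), and LTBP1 (1.32) and LTBP2 (0.86), which bind latent TGF-beta or fibrillin in the matrix. LTBP1 went from 41.8, 31.4 and 30.5 to 106, 78.4 and 78.7 normalized counts. SKIL, a repressor of SMAD signalling, was lowered (-0.71), as were the coreceptor TGFBR3 (-1.13) and ID1, a BMP target (-0.63). TGFBR3 (-0.71) and ID1 (-0.56) were not called without the third 400 nM library. Of 6 tested genes of the EGFR family, its ligand gene HBEGF and EGFR (0.65) were raised and ERBB2 (-0.62) was lowered, but neither receptor call held without the first DMSO library (0.54 and -0.57) or the second 400 nM library (0.55 and -0.55).

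Genes of G1/S entry and DNA replication were raised in part, with 19 raised, 0 lowered and 49 not called of 68 tested, a median log2 fold change of 0.37 and 53 members above 0. Leaving out each library in turn gave 17 to 21 raised. The largest rises were those of CCND2, cyclin D2, which was at 0, 3.81 and 0.761 normalized counts with DMSO and 17.0, 16.1 and 11.7 with 400 nM C16 (2.95, a value that depends on the pseudocount), CDC25A, the phosphatase that activates CDK2 (1.46), CCNE2, cyclin E2 (1.26), and CCND3, cyclin D3 (1.18). CDC25A went from 10.7, 12.4 and 15.2 to 34.0, 40.4 and 35.1 and CCND3 from 28.2, 45.7 and 36.5 to 86.1, 81.9 and 80.9. The groups of all 4 were apart, which their choice as the largest called rises favours (20.4% of all genes tested lay wholly above DMSO). CCND1, cyclin D1, the most abundant D cyclin here, had a log2 fold change of 0.30, under the fold threshold. Of the exon bases of CCNE2, 9.87% overlap INTS8 on the opposite strand. Among 78 mitosis genes 2 were raised and 0 lowered, with a median of 0.08. These were MYBL2 (0.84) and FOXM1 (0.68), transcription factors of the late cell cycle, and 12.3% of the exon bases of FOXM1 overlap another gene on the opposite strand.

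GADD45A, the growth arrest gene that the study followed up, stood at 84.5, 99 and 83 normalized counts with DMSO and at 129, 134 and 136 with 400 nM C16. Its log2 fold change of 0.58 with a standard error of 0.11 (Benjamini-Hochberg adjusted p = 5.7e-05, limma) lay just under the fold threshold, so it was not called, although the groups did not overlap. Without the second DMSO library (0.66) or the first 400 nM library (0.60) it was called. CDKN1A, the CDK inhibitor p21, went from 48.6, 79.0 and 73.1 to 90.4, 104 and 115 (0.64, adjusted p = 0.0004) and was not called without the first DMSO library (0.43) or the third 400 nM library (0.56), by limma with Benjamini-Hochberg adjustment. Among the other CDK inhibitors CDKN2D rose (5.22 ± 2.94 to 15.7 ± 3.74, mean ± SD, n = 3 per group, 1.54) and CDKN1B, p27, fell from 63.2, 69.5 and 56.3 to 40.4, 28.8 and 31.9 (-0.89). Of 12 tested BCL2 family genes 2 were raised (16.7%) and 1 lowered (8.33%), beside 7.08% and 5.45% over all genes tested. The antiapoptotic BCL2A1 went from 7.77, 1.90 and 0.761 to 13.8, 16.1 and 19.1 normalized counts (2.28, a value that depends on the pseudocount). BCL2L1, the other raised member, lost its call without the third DMSO library (0.56). BCL2L11, the proapoptotic BIM, fell from 57.3, 46.7 and 53.3 to 33.0, 13.8 and 33.0 (-1.05).

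Of the lipid genes, 15.8% of the fatty acid list and 7.69% of the cholesterol list were lowered, beside 5.45% over all genes tested. In fatty acid synthesis 3 of 19 tested genes were lowered and 1 raised (median log2 fold change -0.19). FADS2 and FADS1, the desaturases of polyunsaturated fatty acids, fell from 1074, 1086 and 1142 to 542, 414 and 455 normalized counts (-1.23) and from 495, 465 and 495 to 295, 283 and 302 (-0.72). SCD, which desaturates stearate, fell from 3746 ± 11.4 to 2452 ± 403 (mean ± SD, n = 3 per group, -0.62) but was not called without the second (-0.53) or the third (-0.58) 400 nM library. ME1, the malic enzyme that supplies NADPH, was the raised member (0.74). SREBF1, the regulator of lipid synthesis, fell from 196, 232 and 228 to 93.6, 96.9 and 106 (-1.14, Benjamini-Hochberg adjusted p = 1.7e-10, limma). In the cholesterol list it was the second of 2 lowered members of 26, beside TM7SF2, a sterol reductase, which went from 104, 106 and 87.6 to 18.1, 18.5 and 20.2 (-2.33). SREBF2, the related regulator of sterol synthesis (-0.18), was not called. The median of the cholesterol list was 0.03, with 15 of 26 members above 0.

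Interferon-stimulated genes went both ways. Of 33 tested 3 were raised and 5 lowered, with a median log2 fold change of -0.01, and 1 was raised without the first or the second DMSO library. IFITM3 and IFITM1, membrane proteins that block virus entry, fell from 234, 218 and 232 to 122, 157 and 128 normalized counts (-0.75) and from 31.1 ± 5.04 to 12.8 ± 3.83 (mean ± SD, n = 3 per group, -1.25). TRIM25, a ubiquitin ligase of RNA sensing, rose from 156, 165 and 184 to 317, 338 and 311 (0.93). OASL, an antiviral protein, had the lowest value (-1.58) but lost its call without the second DMSO library (-1.36) or the third 400 nM library (-1.34). Of 19 genes of MHC class I presentation 0 were raised and 0 lowered by limma with Benjamini-Hochberg adjustment at the fold threshold, nor by edgeR or DESeq2, and 10 had an unadjusted p under 0.05. The most abundant, CANX (0.23) and CALR (0.20), encode chaperones of this pathway. Of 22 NF-kB targets 4 were raised and 2 lowered. ICAM1, an adhesion molecule for leukocytes, went from 151, 137 and 155 to 305, 314 and 305 (1.06), the chemokine gene CCL2 rose by 0.80, and NFKBIA, the inhibitor of NF-kB (-0.82), and TNFAIP2 (-0.67) fell.

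The remaining metabolic and organelle lists had smaller shares of called members than the ATF4 list. HMOX1, heme oxygenase 1, went from 82.6, 94.3 and 81.5 to 212, 196 and 196 normalized counts (1.22). It is a target of the oxidative stress factor NRF2, as are SLC7A11, OSGIN1 (1.51) and ME1, which were raised, and ABCC3 and NQO1, which were lowered. NQO1, a quinone reductase (-0.71), was not called without the first DMSO library (-0.56), which left 1 lowered. In all 4 of 31 NRF2 targets were raised and 2 lowered (median log2 fold change 0.02). Iron handling had 4 of 19 raised and 0 lowered, with STEAP1, a metalloreductase (1.70), and SLC39A14, a zinc and iron importer (0.80), beside HMOX1. Of 39 glycolysis and hypoxia genes 8 were raised and 2 lowered (median 0.19), with HK2, the inducible hexokinase, from 6.91 ± 1.37 to 23.6 ± 5.46 (mean ± SD, n = 3 per group, 1.63), the glucose carrier SLC2A1 (0.89) and ENO2 (0.87) against BNIP3L (-0.99) and PFKL (-0.76). Lysosomal genes had 6 of 53 raised and 1 lowered (median 0.21), led by MCOLN1, a calcium channel of lysosomes (8.88 ± 0.586 to 28.3 ± 5.94, mean ± SD, n = 3 per group, 1.55), with the protease CTSH lowered (-0.92). SMOX, spermine oxidase, rose by 1.13, and 2 of 12 polyamine genes were raised. Autophagy genes had 2 of 33 raised and 2 lowered, with the receptor NBR1 lowered (-0.81). Of drug efflux ABC transporters ABCC3 was the 1 member of 13 called, from 137, 134 and 167 to 56.4, 55.4 and 60.6. The smallest of these counts moved with single libraries. Without the third DMSO library 1 polyamine gene and 1 autophagy gene were raised and 4 autophagy genes lowered. Without the second DMSO library 1 polyamine gene was raised and 1 autophagy gene lowered, without the third 400 nM library 1 polyamine gene was raised, and without the first 400 nM library 1 autophagy gene was raised and 1 iron gene lowered.

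The lists of constitutive machinery contained few calls. Of 80 cytosolic ribosomal protein genes 0 were raised and 0 lowered, also by edgeR and DESeq2, yet 42 had an unadjusted p under 0.05 from limma and 69 were below 0, with a median log2 fold change of -0.15 and a range of -0.49 to 0.13. The 2 most abundant were RPS16 (10877 ± 699 to 10779 ± 325 normalized counts, mean ± SD, n = 3 per group, -0.01) and RPS2 (-0.10). The proteasome (0 of 34 called by limma, edgeR or DESeq2, 11 with an unadjusted p under 0.05, median -0.03, PSMC4 at 0.02 and PSMD2 at 0.36), mitochondrial ribosomal proteins (1 raised and 3 lowered of 74, median -0.06, MRPL53 at -1.11) and nuclear genes of the respiratory chain (0 raised and 4 lowered of 76, median 0.00, NDUFB5 at -0.69) had medians close to 0. Without the second DMSO library 2 respiratory chain genes were lowered. Among the genes linked to pancreatic cancer 1 of 12 was raised, MUC1 (0.79), a call lost without the first (0.64) or second (0.63) DMSO library or the third 400 nM library (0.68).

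The 800 nM libraries give the context of the dose. Against the same DMSO libraries 800 nM C16 raised 1158 genes (11.6%) and lowered 1403 (14.1%). Tested directly, 113 genes (1.13%) were higher and 394 (3.95%) lower at 800 nM than at 400 nM, by the same thresholds. Of the 543 genes lowered at 400 nM, 92 were lower still at 800 nM and 5 were higher. Of the 705 raised at 400 nM, 15 were higher at 800 nM and 16 were lower. The same 400 nM libraries chose these genes and entered the comparison of the doses, so no dose pattern is read from these splits. That limit also holds for the genes named below for their change at 400 nM.

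Among the genes named above, LXN (55.4 ± 11.2 normalized counts at 400 nM and 18.7 ± 6.26 at 800 nM, mean ± SD, n = 3 per group), RET, MXRA5, JUP and SREBF1 were lower at 800 nM than at 400 nM. JUP went from 378 ± 11.5 with DMSO to 161 ± 17.7 and 75.3 ± 5.99, and SREBF1 from 219 ± 19.8 to 98.9 ± 6.65 and 40.2 ± 7.33 (mean ± SD, n = 3 per group). DUSP5 was higher at 800 nM (157 ± 15.1 against 101 ± 4.60, mean ± SD, n = 3 per group), as was CDC25A (0.71 on the log2 scale). FLNC (-0.15, adjusted p = 0.37) and PLAU (-0.10, adjusted p = 0.43) had no called difference between the doses by limma with Benjamini-Hochberg adjustment.

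Of the stress genes named for their rise at 400 nM, part stood higher at 400 nM than at 800 nM. That choice favours such a difference, so no dose pattern is read from it. ATF4 was at 250 ± 15.0 with DMSO, 404 ± 7.94 at 400 nM and 279 ± 24.6 at 800 nM (mean ± SD, n = 3 per group), a difference of -0.54 between the doses with a Benjamini-Hochberg adjusted p = 2.6e-06 in limma, just under the fold threshold. At 800 nM ALDH1L2 stood at 9.88 ± 1.20 (-1.31 between the doses) and CHAC1 at 34.1 ± 2.17 (-0.69), and both differences were called. GDF15 (-0.48) and HMOX1 (-0.45) had the same sign with adjusted p of 0.00062 and 0.0025 (limma, Benjamini-Hochberg), under the fold threshold. Side by side, the ATF4 list had 24 raised and 1 lowered at 400 nM and 21 raised and 5 lowered at 800 nM, with medians of 0.84 and 0.61. The G1/S list had 19 raised and 0 lowered at 400 nM and 27 raised and 3 lowered at 800 nM, with medians of 0.37 and 0.45. The laminin, collagen and integrin list had 8 raised and 0 lowered at 400 nM and 7 raised and 10 lowered at 800 nM. Over all genes tested, 7.08% were raised and 5.45% lowered at 400 nM, and 11.6% and 14.1% at 800 nM. Both doses were set against the same DMSO libraries, so these counts are not independent.

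**Figure D5:**
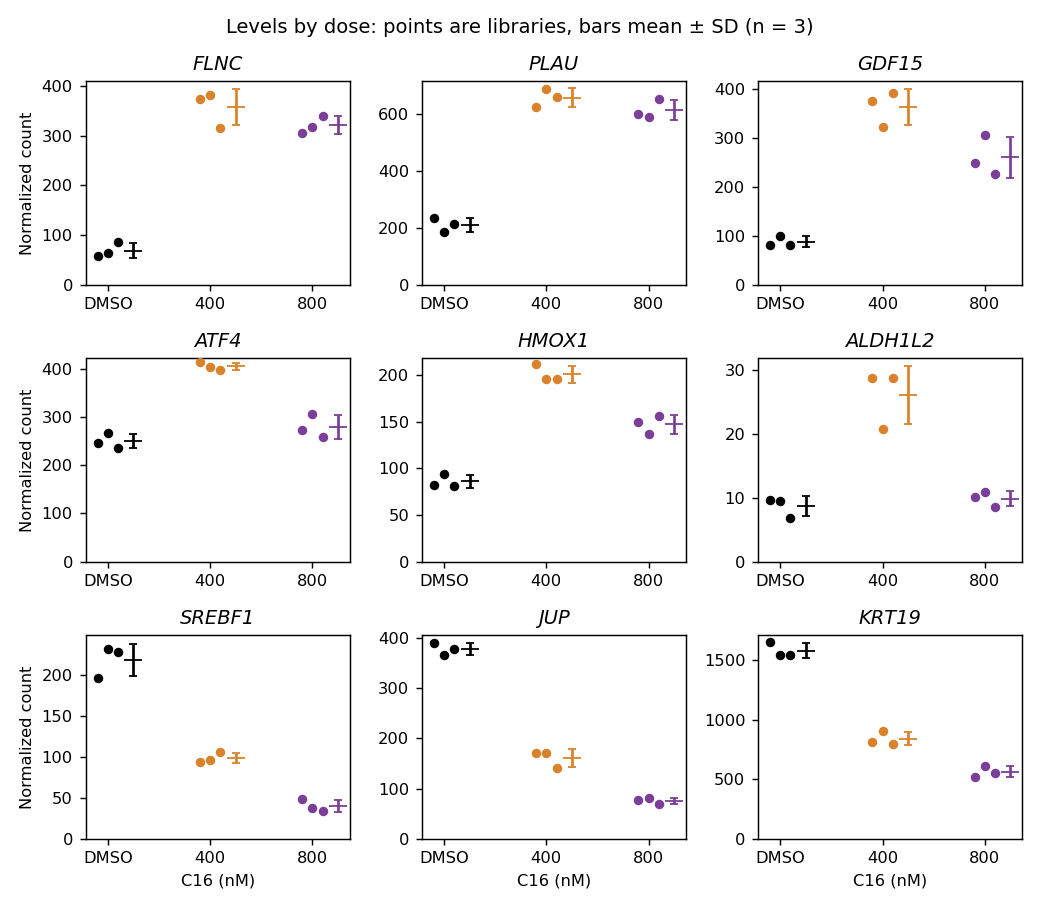
Normalized counts (y axis, from 0) of 9 genes in the DMSO, 400 nM and 800 nM libraries, with 1 point per library and the mean ± SD (n = 3) beside them. FLNC and PLAU have no called difference between the doses, GDF15, ATF4, HMOX1 and ALDH1L2 are highest at 400 nM, and SREBF1, JUP and KRT19 are lowest at 800 nM. The genes were chosen with their values known, so no dose pattern is read from them.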

How the data were processed

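Poly(A) RNA of PANC-1 cells was sequenced from directional libraries on a MiSeq. The authors mapped reads to hg38 with TopHat, counted them per gene with featureCounts and deposited TMM-normalized counts, a signal per gene, made with TCC. The annotation, the strand setting and tool versions are not given in the sources used here. All values were whole multiples of 1 read (tolerance 0.01 reads), so counts could be recovered. Genes with a mean of at least 10 over 9 libraries were tested with limma 3.58.1 (R 4.3.3) on log2 (normalized count + 1), with a trend, all 9 libraries and no block. Fold changes on this scale understate changes of low genes. On data simulated for this comparison, 163 of 200 genes changed by 2-fold were recovered among 9963, with 1 false call. The simulation gave every gene the same assumed dispersion between libraries and had no deviating library. It therefore gives no error rate for the real libraries. Alternatives included edgeR 4.0.16 and DESeq2 1.42.0 on recovered reads of the 6 libraries compared. The genes and lists were chosen with earlier results of these data known. The genes named included the largest changes among called genes with a mean of at least 50 and groups that did not overlap. The others were up to 4 called members in each direction per list, the 2 most abundant members of a list without calls, and key members. Gene positions and exon overlaps came from the deposited table. The siRNA libraries were not analysed here. Results for some genes are not reported here.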

Additional observations from a re-analysis of the deposited data

How the results depend on the processing

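Against 705 raised and 543 lowered genes, the numbers were 711 and 539 with a pseudocount of 0.5, 611 and 502 with one of 5, 754 and 580 without a filter, 473 and 296 with a minimum mean of 30 (where 7081 genes were tested), 661 and 582 after median-of-ratios rescaling, 691 and 592 with the 800 nM libraries left out of the fit, 676 and 629 by edgeR, and 457 and 384 by DESeq2, all 457 of the latter being among the 705. Leaving out each library in turn gave 647 to 711 raised and 448 to 577 lowered. With the replicate number as a block 699 and 540 were called. The numbers did not pair the samples, since the deviations of same-numbered DMSO and 400 nM libraries had correlations of -0.02, -0.04 and -0.05, and no sample correlated best with its own number. Of 180 called genes among those examined singly, 40 lost their call under at least 1 alternative and 0 changed sign. Changes of sign were limited to uncalled genes near 0, PSMC4 (-0.0163 to 0.0493 over the libraries left out) and RPS16 (-0.0618 to 0.0307). Genes near the minimum of 10 had few reads, and a missing call there does not show a lack of change.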

Other observations

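Genes outside the lists and under a mean of 50 included the widest changes of all, and those below were chosen after their values were seen. HAS3, a hyaluronan synthase, had the largest rise of any gene tested, from 6.80, 7.62 and 6.09 normalized counts with DMSO to 69.1, 64.6 and 81.9 with 400 nM C16 (log2 fold change 3.21), and 7.39% of its exon bases overlap CHTF8 on the opposite strand. MARCH4, a ubiquitin ligase (2.89), MYH15, a myosin heavy chain (2.83), and TLR6, a receptor of bacterial lipopeptides (2.39), rose from means of 2.24, 2.36 and 2.23, where the fold depends on the pseudocount. CCM2L had the largest fall, from 84.5, 91.4 and 86.8 to 12.8, 6.92 and 20.2 (-2.74). The pseudogene FER1L4 (-2.40), the glucose carrier SLC2A12 (-2.16) and BCAM, a laminin receptor (73.1 ± 6.12 to 16.0 ± 2.13, SD, n = 3 each, -2.13), were lowered too.

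Among abundant genes, MET, the receptor of hepatocyte growth factor, rose from 179, 208 and 235 to 443, 416 and 434 normalized counts (1.06). UAP1, which makes a sugar nucleotide used in hyaluronan synthesis, rose from 140, 146 and 121 to 359, 438 and 350 (1.49), and VWA1, a matrix protein of the basement membrane, fell from 799, 761 and 784 to 386, 334 and 332 (-1.16). The groups did not overlap in any of these genes, which their choice by value favours. Of all genes tested, 20.4% lay wholly above DMSO and 19.1% wholly below.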
